A study of Mus musculus with 8 samples.

Results

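The genes described here are 43 genes of autophagy and the lysosome, out of 58304 genes kept from the deposited expression table. They were taken by gene symbol from a list of names, and all 43 had 1 entry. The list was drawn up with the differences between these same libraries in view, so the differences given for its genes are a description, without p-values, and support nothing by themselves. The study set recombinant fibroblast growth factor 4 (rFGF4) against phosphate-buffered saline (PBS) as wound treatments. Its 8 RNA-seq libraries comprised 4 labelled PBS and 4 labelled rFGF4. The labels give C57BL/6 mice aged 6 to 8 weeks as the source in both groups, with skin from the 2 mm around each wound collected at day 6. No mutant allele is named for either group. The table does not hold mouse genes: all 58304 gene identifiers are human Ensembl identifiers and 0 are mouse. Values are therefore given for the libraries by their labels, and nothing is stated about wounded mouse skin. No source used here says which cells the RNA came from.

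Autophagy encloses cytoplasmic material in a double membrane, the autophagosome, which then fuses with the lysosome. ULK1 starts the process, proteins of the ATG8 family (the LC3 and GABARAP proteins) are attached to the growing membrane, and receptors such as SQSTM1 link cargo to them. The lysosome is kept acidic by a proton pump, the V-ATPase, and its cathepsins, glycosidases and lipid-handling proteins digest what arrives. In many cell types the transcription factors TFEB, TFE3 and MITF raise many of these genes when nutrients are scarce, and folliculin (FLCN), its partners FNIP1 and FNIP2 and the Rag GTPases take part in holding those factors in the cytoplasm.

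Total counts ran from 62044121 to 73680756 per library. The counts behave as estimates and pile up at 4, so 1 fragment was taken as about 4 counts, a weight no label gives. On that reading a floor of 3 fragments was 12 counts. This was 0.162 to 0.192 CPM (counts scaled to a common library size), depending on the library. Of the basal keratinocyte marker list, 8 of 8 genes had a mean of at least 1 FPKM (fragments per kilobase, scaled to the depth of the library), and their summed level was 2329 to 2657 FPKM in the PBS libraries and 2139 to 2252 in the rFGF4 libraries. Markers of differentiated epidermis reached that level for 5 of 8 genes, of endothelium for 1 of 6 (CDH5), and of macrophages (14 genes), melanocytes (8), fibroblasts (8) and T cells (5) for 0. The sums of the basal keratinocyte markers did not overlap between the groups. Large parts of these sums were KRT14 (mean 1093 FPKM with PBS, 958 FPKM with rFGF4) and KRT5 (987 and 834 FPKM). Neither gene passed the edgeR test used below, and KRT5 overlapped between the groups. The sums of differentiated epidermis just missed overlap, at 28.3 to 30.9 FPKM with PBS and 24.9 to 28.2 FPKM with rFGF4. Fibroblast sums, though low, did not overlap either, at 0.776 to 0.864 FPKM with PBS and 0.411 to 0.517 FPKM with rFGF4. Endothelium sums met at the edge, at 1.93 to 3.29 FPKM with PBS and 3.24 to 4.46 FPKM with rFGF4. The macrophage, melanocyte and T cell sums overlapped. The part of these differences in the results was not tested. FGF4 itself had 0 counts in all 8 libraries, while DUSP6, a phosphatase induced by FGF signalling, ran from 30.4 to 40.4 CPM with PBS and from 159 to 205 CPM with rFGF4. ETV4, another gene induced by FGF signalling, ran from 25.1 to 28.1 CPM with PBS and from 64.1 to 75.6 CPM with rFGF4. The labels number the replicates but do not tie them to separate animals, so the p-values measure only the spread between these samples, which may be technical. In RNA from mixed cells, fewer cells of a type and less RNA per cell cannot be told apart.

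Among the 43 genes, 5 fell in the libraries labelled rFGF4: MAP1LC3B, ULK1, GPNMB, LAMP2 and PSAP. None rose. The filter on low values, a mean of at least 1 FPKM over the 8 libraries, left 38 of the 43, and 33 of these did not pass the test. A gene passed when its Benjamini-Hochberg adjusted p in edgeR's quasi-likelihood test was under 0.05. By that rule 4.54% of the 11536 tested genes of the whole table were lower and 5.49% were higher. At an unadjusted p under 0.05 in edgeR there were 11 of the 38 lower and 2 higher. No share over all tested genes is given at that threshold, here or below. DESeq2 called 8 of the 38 lower and 0 higher, beside 846 lower and 982 higher over all tested genes. In 9 of the 38, every rFGF4 library lay below every PBS library, a pattern found in 9.26% of all tested genes. The reverse pattern occurred in 0 of the 38, against 10.1% of all tested genes. These shares are given as background only, since the genes were selected on the same contrast. The log2 fold changes (rFGF4 over PBS) were negative for 31 of the 38 and positive for 7, with a median of −0.11. Over all tested genes 49.7% were negative and the median was 0.00, again as background only. Without rFGF4 replicate 4 the number that fell was 8 in place of 5, and without rFGF4 replicate 2 there was 1 higher gene, CD68.

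**Figure D1:**
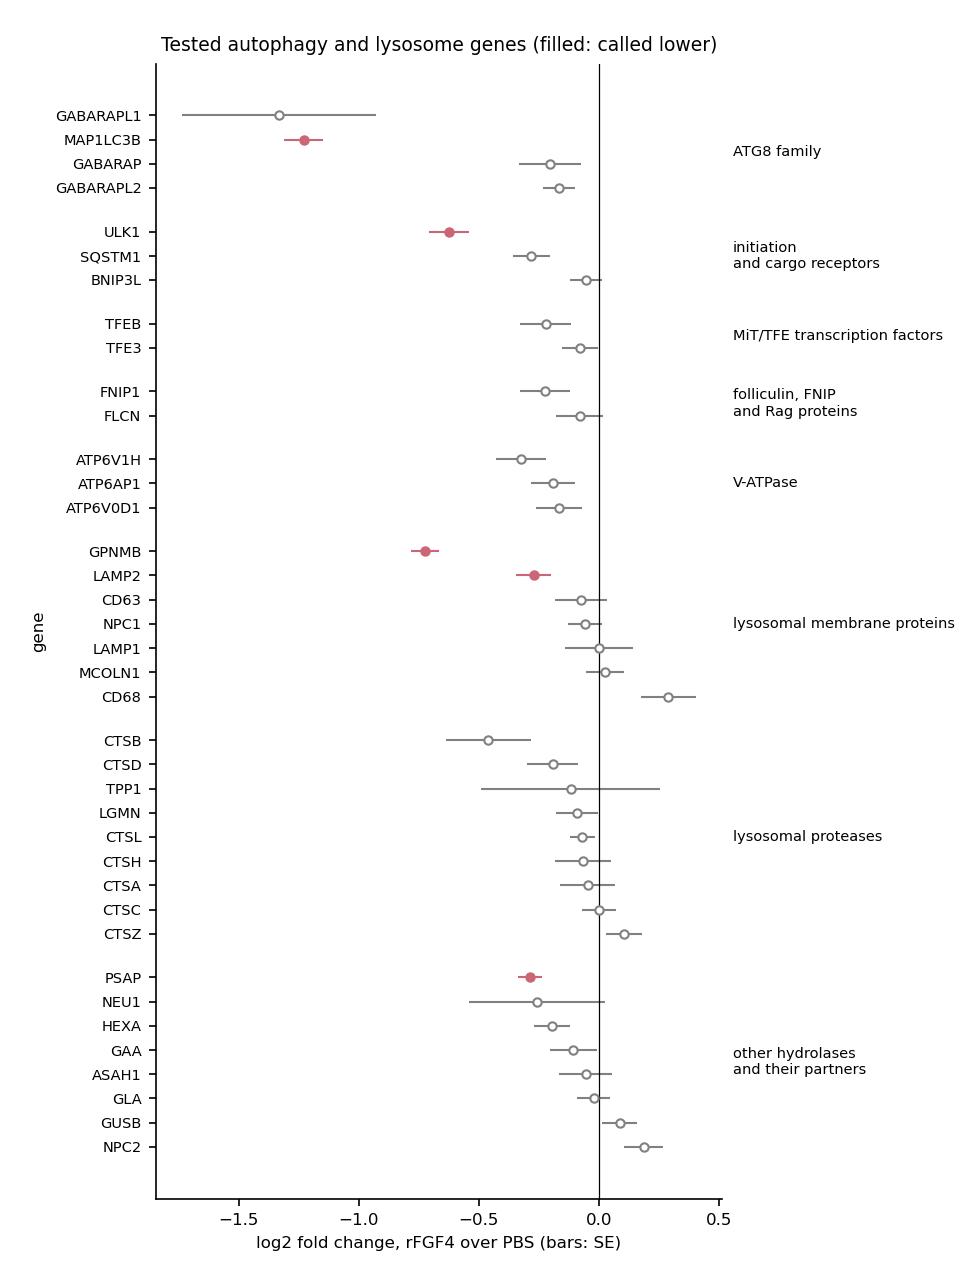
Log2 fold change of each of the 38 tested genes, rFGF4 over PBS, on the horizontal axis, with the genes on the vertical axis grouped by role; bars show the standard error and filled points the 5 genes that passed the test. MAP1LC3B (−1.23), GPNMB (−0.72) and ULK1 (−0.62) lie farthest left among the filled points, and GABARAPL1 (−1.33) is the open point with the widest bar among the ATG8 family.

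The ATG8 family held the largest differences. MAP1LC3B, the LC3 protein most used as a marker of autophagosomes (chromosome 16, 87383953 to 87404779, plus strand, as the table gives it), stood at 81.5, 79.8, 86.8 and 93.8 CPM in PBS replicates 1 to 4. In rFGF4 replicates 1 to 4 it stood at 32.2, 38.0, 38.5 and 37.1 CPM. The groups were far apart, and the mean fell from 85.5 ± 6.28 to 36.5 ± 2.87 CPM (SD, n = 4), which is 57.4% lower and a log2 fold change of −1.23 (SE 0.08). GABARAPL1, a family member of the GABARAP branch, was at 61.4, 62.9, 55.6 and 57.5 CPM in the PBS libraries and at 37.5, 10.4, 34.1 and 12.3 CPM in the rFGF4 libraries. All 4 rFGF4 libraries were below all 4 PBS libraries, but rFGF4 replicates 2 and 4 lay far below rFGF4 replicates 1 and 3. Its log2 fold change of −1.33 had an SE of 0.40 and did not pass in edgeR, while it passed with DESeq2 and with limma. The spread of GABARAPL1 within groups exceeded that of 96.3% of all tested genes.

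GABARAPL2 was at 61.5 to 65.4 CPM in the PBS libraries and 52.3 to 61.3 CPM in the rFGF4 libraries. These ranges did not overlap, yet the difference of −0.17 (SE 0.07) did not pass. GABARAP overlapped between the groups, with 66.1, 69.4, 69.4 and 81.2 CPM against 55.1, 50.5, 68.5 and 74.03 CPM and a log2 fold change of −0.20 (SE 0.13).

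Compared per length, GABARAP was the most abundant of the 4, at 30.6 FPKM in the PBS libraries, ahead of GABARAPL2 (17.5), MAP1LC3B (14.2) and GABARAPL1 (12.2). The 4 together summed to 74.6 ± 2.61 FPKM in the PBS libraries and 52.1 ± 3.86 FPKM in the rFGF4 libraries (SD, n = 4). MAP1LC3B made up 19.0% ± 0.83 of that sum in the PBS libraries and 11.5% ± 1.46 in the rFGF4 libraries. The share of GABARAP was 41.0% ± 1.87 and 49.8% ± 4.31, and that of GABARAPL2 was 23.5% ± 1.176 and 29.7% ± 4.03. GABARAPL1 had 16.4% ± 1.38 in the PBS libraries and 9.08% ± 5.40 in the rFGF4 libraries, where replicates 1 to 4 were at 15.0%, 4.62%, 12.3% and 4.39%. These shares are parts of 1 total, so lower shares of some genes raise those of the others.

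**Figure D2:**
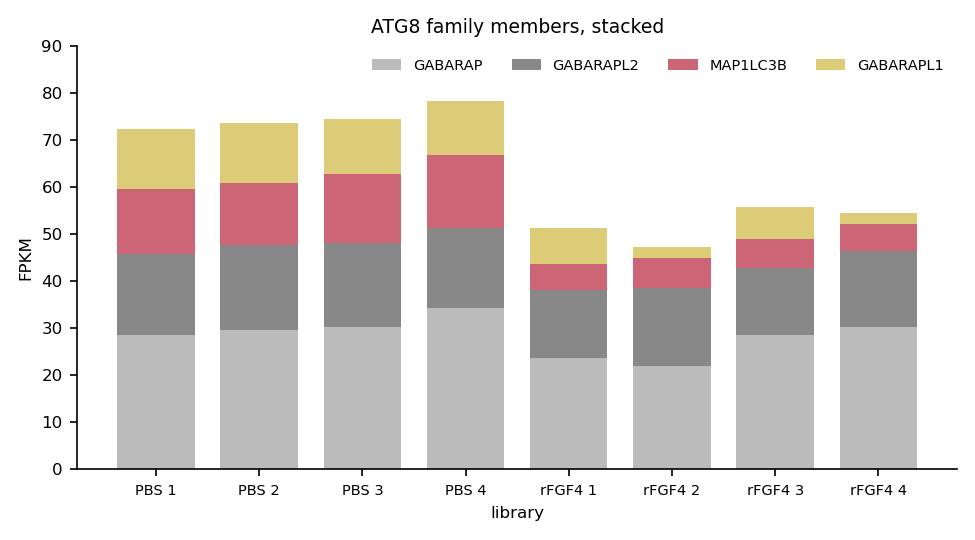
FPKM of the 4 ATG8 family genes stacked for each of the 8 libraries (horizontal axis: library; vertical axis: FPKM). The stacks of the rFGF4 libraries are between 47.1 and 55.7 FPKM high and those of the PBS libraries between 72.2 and 78.3 FPKM, with the MAP1LC3B and GABARAPL1 layers thinner in the rFGF4 libraries.

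Near copies of MAP1LC3B could share its fragments. MAP1LC3B2, an almost identical gene, was at 0.87 ± 0.089 FPKM in the PBS libraries and 0.82 ± 0.17 FPKM in the rFGF4 libraries. MAP1LC3A was at 0.75 and 0.84 FPKM, and MAP1LC3C and GABARAPL3 had 0 counts throughout. FBXO31 overlaps MAP1LC3B on the opposite strand over 8190 bases and averaged 25.7 CPM with PBS and 30.3 CPM with rFGF4. Its difference of 0.24 (SE 0.07) on the log2 scale did not pass. None of the sources used here says if the counting was stranded, so fragments of these overlapping genes cannot be told apart.

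ULK1, the kinase that starts autophagosome formation (chromosome 12, 131894622 to 131923150, plus strand), was at 16.1, 16.5, 14.5 and 15.0 CPM in the PBS libraries. In the rFGF4 libraries it stood at 9.87, 9.55, 10.9 and 10.0 CPM. The groups did not overlap and the level fell by 35.1%, a log2 fold change of −0.62 (SE 0.08). Per length it was among the least abundant of the 43, at 1.70 FPKM and rank 37 in the PBS libraries. SQSTM1, the p62 receptor that carries ubiquitinated cargo, was at 495, 489, 479 and 519 CPM in the PBS libraries and at 381, 368, 418 and 464 CPM in the rFGF4 libraries. Every rFGF4 value was below every PBS value, with a log2 fold change of −0.28 (SE 0.08) that did not pass in edgeR but passed with DESeq2, with limma and in edgeR without rFGF4 replicate 4. BNIP3L, a receptor for mitochondria, overlapped between the groups (−0.06, SE 0.07).

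WIPI1, which binds the lipid of forming autophagosomes, and BNIP3, a relative of BNIP3L, were below the filter. WIPI1 had 243 to 302 counts in the PBS libraries and 225 to 278 in the rFGF4 libraries. Its log2 fold change in the fit without a filter was −0.24 (SE 0.14). BNIP3 had 161 to 212 and 140 to 200 counts, with −0.11 (SE 0.20). Both overlapped between the groups.

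The MiT/TFE transcription factors did not pass in edgeR, DESeq2 or limma, with 0 at an unadjusted p under 0.05. TFEB was at 19.6, 18.9, 19.9 and 19.7 CPM in the PBS libraries and at 16.3, 14.7, 15.9 and 20.2 CPM in the rFGF4 libraries. Replicate 4 was the highest of all 8 libraries, and the other rFGF4 libraries lay below the PBS range. The log2 fold change was −0.22 (SE 0.11), and the gene was called lower when rFGF4 replicate 4 was left out. TFE3 was at 44.2, 42.4, 40.8 and 45.2 CPM in the PBS libraries and at 41.0, 37.5, 39.4 and 45.5 CPM with rFGF4. The log2 fold change was −0.08 (SE 0.07). Here the groups overlapped, and replicate 4 was again the highest of its group. MITF averaged 0.49 FPKM and was not tested. Its counts were 366, 399, 239 and 221 in the PBS libraries and 367, 316, 237 and 177 in the rFGF4 libraries, with a log2 fold change of −0.25 (SE 0.25) in the fit without a filter.

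The proteins that control these factors showed no called difference either. FLCN differed by −0.08 (SE 0.10) on the log2 scale, and MPRIP, which overlaps it on the opposite strand and rose by 0.46 (SE 0.08), may share fragments with it. FNIP1 had −0.23 (SE 0.11). FNIP2 was below the filter, with 572 to 812 counts in the PBS libraries, 434 to 846 in the rFGF4 libraries and −0.09 (SE 0.19) in the fit without a filter. RRAGD, the Rag GTPase that MiT/TFE factors induce in several cell types, had 0, 8, 0 and 8 counts in the PBS libraries and 0, 0, 6 and 12 in the rFGF4 libraries. All 8 values were at or below the floor of 12 counts, so no fold is given.

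**Figure D3:**
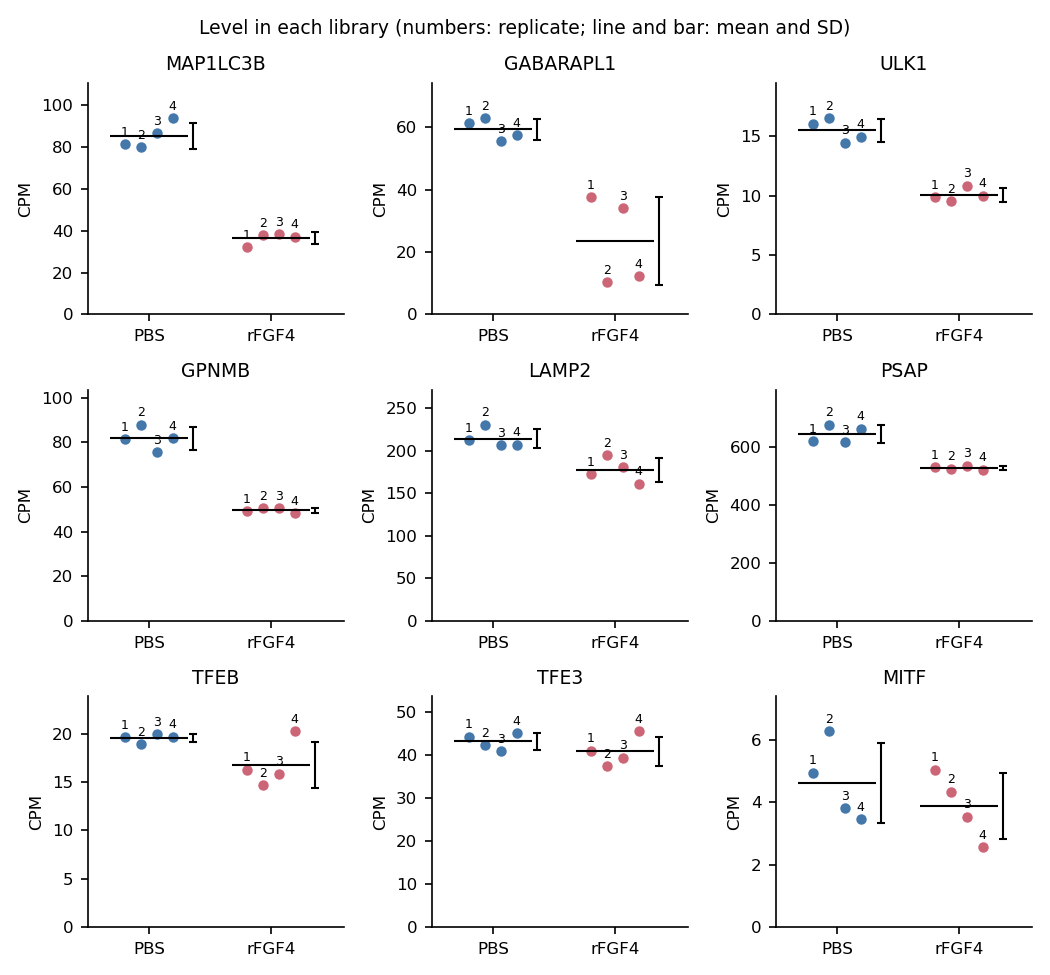
Level in CPM (vertical axis, from 0) of 9 genes in each library of the 2 groups (horizontal axis); numbers are the replicates, lines the means and bars the SD (n = 4). MAP1LC3B, ULK1, GPNMB, LAMP2 and PSAP are separated between the groups, GABARAPL1 splits into pairs within the rFGF4 libraries, and TFEB, TFE3 and MITF overlap.

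Of the V-ATPase genes, 0 of 3 passed in edgeR, with 1 lower at an unadjusted p under 0.05. ATP6V1H, a subunit of the part that splits ATP, was at 78.6 to 89.4 CPM in the PBS libraries and 55.3 to 78.6 CPM in the rFGF4 libraries, meeting only at the edge. Its log2 fold change was −0.33 (SE 0.10). It passed with DESeq2, with limma and without rFGF4 replicate 4. ATP6AP1, an accessory subunit, had −0.19 (SE 0.09) and ATP6V0D1, of the membrane part, −0.17 (SE 0.10). ATP6V0D1 also passed without rFGF4 replicate 4.

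Lysosomal membrane proteins divided into 2 that fell and 5 that did not pass. GPNMB, a glycoprotein of lysosomes and melanosomes (chromosome 7, 23235967 to 23275107, plus strand), was at 81.6, 87.9, 75.7 and 81.9 CPM in the PBS libraries. It was at 49.1, 50.4, 50.4 and 48.2 CPM in the rFGF4 libraries. The rFGF4 values were close together and all below the PBS values, and GPNMB fell by 39.4%, a log2 fold change of −0.72 (SE 0.06). Macrophages and melanocytes are known for high GPNMB, and their markers were near 0 here. The 14 macrophage markers summed to 0.424 to 0.861 FPKM in the PBS libraries and 0.553 to 0.696 in the rFGF4 libraries, with AIF1, C1QA, C1QC and TYROBP listed at 0 in all 8. The 8 melanocyte markers summed to 0.378 to 0.483 and 0.206 to 0.577 FPKM, with OCA2, SOX10 and TYR listed at 0. GPNMB itself averaged 11.3 FPKM in the PBS libraries. Which cells its fragments came from was not tested.

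LAMP2, a major protein of the lysosomal membrane (chromosome X, 120427827 to 120469365, minus strand), was at 213, 230, 206 and 207 CPM in the PBS libraries. In the rFGF4 libraries it was at 173, 195, 181 and 161 CPM. The groups did not overlap, and the log2 fold change was −0.27 (SE 0.07). This call was the least stable of the 5. It ended without any 1 of the 4 PBS libraries or of rFGF4 replicates 1, 3 and 4, with limma, and with each wider filter on low values. LAMP1, its partner in the membrane, had a log2 fold change of 0.00 (SE 0.14). Its values were 414, 303, 416 and 313 CPM in the PBS libraries and 388, 392, 290 and 376 CPM in the rFGF4 libraries, a spread within groups as wide as any difference between them.

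CD68, a lysosomal protein abundant in macrophages, was at 18.3 to 22.0 CPM in the PBS libraries. Replicate 2 of the rFGF4 libraries lay in that range, and replicates 1, 3 and 4 were above it at 27.4, 25.3 and 26.9 CPM. CD68 had the largest positive value of the 38, 0.29 (SE 0.11), without passing. A gene model without a symbol of its own shares 2534 bases of the same strand with CD68, so its fragments are uncertain. NPC1, a cholesterol exporter (−0.06, SE 0.07), CD63, a tetraspanin (−0.08, SE 0.11), and MCOLN1, a calcium channel (0.02, SE 0.08), overlapped between the groups.

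None of the 9 lysosomal proteases passed in edgeR, and 1 was lower at an unadjusted p under 0.05. DESeq2 and limma called 0 of them. CTSB, a cysteine protease, was the only 1 of them whose groups did not overlap, with 370, 365, 366 and 424 CPM in the PBS libraries and 338, 180, 319 and 271 CPM in the rFGF4 libraries. Its rFGF4 values were all lower but spread widely, with replicate 2 lowest, and the log2 fold change was −0.46 (SE 0.18). CTSD, an aspartic protease and the most abundant of the 43 genes per length at 228 FPKM in the PBS libraries, had −0.19 (SE 0.11). The other cathepsins lay between −0.07 (CTSL) and 0.10 (CTSZ), with CTSH at −0.06, CTSA at −0.05 and CTSC at 0.00. LGMN, the asparagine endopeptidase legumain, had −0.09 (SE 0.09).

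TPP1, which removes tripeptides from the ends of proteins, had −0.12 with an SE of 0.37. One PBS library, replicate 1, was at 117 CPM and the other PBS libraries at 43.5 to 53.0 CPM, and the rFGF4 libraries ran from 38.4 to 81.3 CPM. Its spread within groups exceeded that of 95.0% of all tested genes, and the table lists 36 transcripts for it. Without PBS replicate 1 the log2 fold change was 0.33 (SE 0.26), and without rFGF4 replicate 3 it was 0.04 (SE 0.38).

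Among the other hydrolases and their partners 1 of 8 fell. PSAP, the precursor of the saposins that help enzymes reach sphingolipids (chromosome 10, 71816298 to 71851325, minus strand), was at 621, 678, 617 and 665 CPM in the PBS libraries. In the rFGF4 libraries it was at 531, 527, 536 and 522 CPM. The 2 ranges did not meet, the rFGF4 values were close together, and the log2 fold change was −0.29 (SE 0.05). Only 2.54% of all tested genes had a smaller spread within groups. PSAP ranked second per length among the 43, at 169 FPKM. NPC2, which passes cholesterol to NPC1, ran the other way without passing, from 235 to 276 CPM in the PBS libraries and from 252 to 306 CPM in the rFGF4 libraries (0.19, SE 0.08).

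The glycosidases HEXA (−0.20, SE 0.08), GAA (−0.11, SE 0.10), GLA (−0.02, SE 0.07) and GUSB (0.09, SE 0.07) and the ceramidase ASAH1 (−0.06, SE 0.11) did not pass. NEU1, a sialidase, ranged from 18.7 to 38.4 CPM within the PBS libraries and from 17.4 to 30.0 CPM within the rFGF4 libraries, so its −0.26 (SE 0.28) was within the replicate spread.

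**Figure D4:**
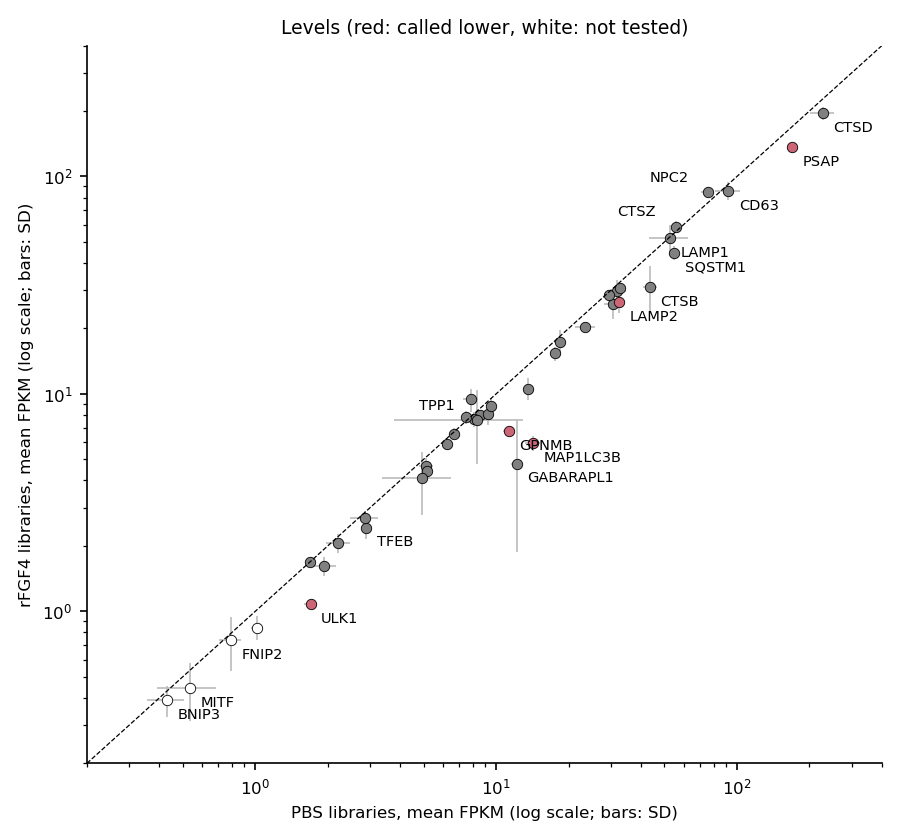
Mean FPKM of the 43 genes, RRAGD excepted, in the PBS libraries (horizontal axis) against the rFGF4 libraries (vertical axis), both on log scales, with bars for the SD (n = 4) and a dashed line of equality. PSAP (169 FPKM in the PBS libraries) and LAMP2 sit just under the line at high levels, and MAP1LC3B, GPNMB and ULK1 (1.70 FPKM) sit farther under it.

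Per length, the 5 genes that fell ranked from the second to the 37th of the 43 in the PBS libraries: PSAP, LAMP2 (32.4 FPKM in the PBS libraries, rank 10), MAP1LC3B (rank 17), GPNMB (rank 20) and ULK1 (rank 37). The 5 genes below the filter, which could not be called, ranked from 39 to 43. The median within-group SD of the 38 tested genes was 0.13 on the log2 CPM scale, and 0.16 over all tested genes. In the annotation deposited with the table, 26 of the 43 were assigned to the KEGG lysosome pathway and 12 to the KEGG pathway of animal autophagy. An overlapping gene with over 20 counts was present for 18 of the 43.

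Among the 5 tested genes most like GPNMB over the 8 libraries, by Pearson's correlation of log2 CPM, were EDAR (0.996), KDM4A (0.996), IDH1 (0.995) and EMP2 (0.994). These 8 points share the 2-group contrast, so the values are a description. EDAR fell from 31.2 to 13.3 CPM and IDH1 from 286 to 182 CPM.

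A wider set of 200 genes in 11 lists covered the rest of both pathways, of which 167 were tested. Of these, 16 fell, 2 rose and 149 did not pass, with a median log2 fold change of −0.06. The 16 that fell are 9.58% of those tested, beside 4.54% of all tested genes, and the 2 that rose are 1.20%, beside 5.49%. These lists too were drawn up with earlier results of the libraries known, so the shares and calls are a description, without p-values. Each of 6 libraries moved the count of 16 by more than 1.5 times when left out. It was 6, 4, 7 and 6 without PBS replicates 1, 2, 3 and 4, and 6 and 4 without rFGF4 replicates 1 and 3. It was also 9 with filterByExpr and 7 with no filter, and DESeq2 called 22 lower and 3 higher. The calls that held under all 17 alternatives were ATG16L1, STX17, SCPEP1 and SESN3.

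Both genes that rose act on autophagosomes. ATG16L1, which places the machinery that attaches LC3 to membranes, was at 47.4 to 49.0 CPM in the PBS libraries and 57.0 to 64.9 CPM in the rFGF4 libraries (log2 fold change 0.35, SE 0.06). STX17, the SNARE protein of autophagosome and lysosome fusion, was at 39.2, 24.8, 33.4 and 25.5 CPM in the PBS libraries and at 53.7, 53.9, 55.8 and 48.0 CPM in the rFGF4 libraries (0.78, SE 0.15). STX17 was the only 1 of 17 tested genes of its list, autophagosome fusion and lysosome positioning, that passed. In the list of autophagosome formation and ATG8 conjugation, 28 genes were tested. Besides ATG16L1, ATG9A, the membrane protein of autophagosome seed vesicles (−0.24), and ATG2A, a lipid transfer protein (−0.26), passed the test and were lower. The call was lost in 11 of the 17 alternatives for ATG9A and in 14 for ATG2A.

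Of 12 tested cargo receptors and their regulators, 3 fell. They were OPTN (−0.32, SE 0.06), NBR1 (−0.34, SE 0.09), a receptor related to SQSTM1, and the kinase PINK1 (−0.31, SE 0.07), which marks damaged mitochondria. OPTN went from 79.8 ± 3.85 to 63.7 ± 3.72 CPM (SD, n = 4). Among the lysosomal proteases outside the 43, 3 of 6 tested genes fell. SCPEP1, a serine carboxypeptidase, was at 60.0 to 64.1 CPM in the PBS libraries and at 43.6 to 47.8 CPM in the rFGF4 libraries (−0.45, SE 0.05). CTSO (−0.52) and CTSS (−0.48), cysteine cathepsins, were the others. Under the 17 alternatives the call was lost in 11 for NBR1, 9 for PINK1, 8 for CTSS, 2 for CTSO and 1 for OPTN. For every list, the share over all tested genes was 4.54% lower and 5.49% higher.

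Single or few genes fell in the remaining lists. ATP6V1B2 was the 1 of 16 tested V-ATPase subunits (−0.21). Of 24 tested glycosidases, lipases, sulfatases and nucleases 2 fell, among them DNASE2, the acid nuclease (−0.43). SLC29A3, a nucleoside transporter (−0.81, SE 0.18), LMBRD1, of cobalamin export (−0.38), and LAPTM4A (−0.26) were 3 of 21 membrane proteins and transporters. Under the 17 alternatives the call was lost in 13 for ATP6V1B2, 11 for LMBRD1, 11 for LAPTM4A, 7 for SLC29A3 and 3 for DNASE2.

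In the list of mTORC1, Rag GTPases and nutrient sensing, 2 of 28 tested genes fell. SESN3, a sestrin that restrains mTORC1, was at 26.6, 27.9, 23.6 and 22.5 CPM in the PBS libraries and at 11.6, 16.1, 13.4 and 11.8 CPM in the rFGF4 libraries. The groups did not overlap (−0.93, SE 0.13). RRAGC, a Rag GTPase that pairs with RRAGA or RRAGB as RRAGD does, went from 42.9 ± 5.53 to 29.7 ± 3.13 CPM (−0.53, SE 0.11). The RRAGC call was lost in 4 of the 17 alternatives. In the lists of enzyme sorting (9 tested), cystatins (3) and further transcription factors of autophagy genes (3), 0 genes passed in edgeR, and the medians were −0.01, 0.08 and −0.16. At an unadjusted p under 0.05 there were 1 higher sorting gene and 1 lower transcription factor, and DESeq2 called 1 sorting gene higher.

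**Figure D5:**
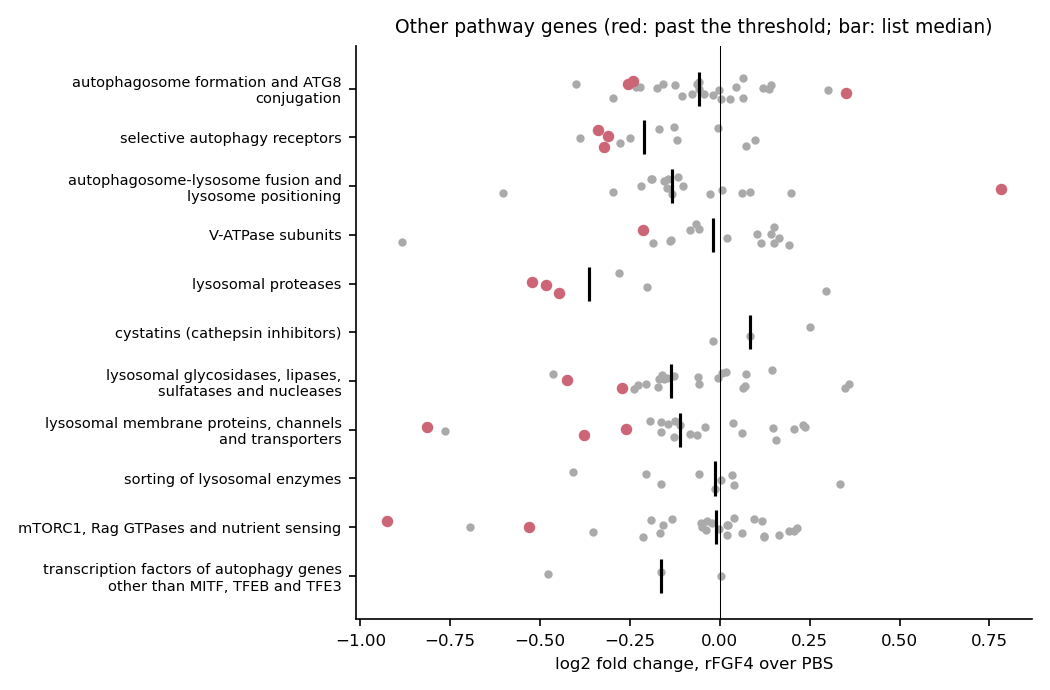
Log2 fold change, rFGF4 over PBS (horizontal axis), of the 167 tested genes outside the 43, 1 row of points per list; red points passed the test and the bar is the list median. Red points lie left of 0 except ATG16L1 (0.35) and STX17 (0.78), and the list medians lie between −0.36 and 0.08.

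The KEGG pathways of the deposited annotation were counted as well, without the 43 genes, and were chosen after the table had been seen. In the lysosome pathway 6 of 71 tested genes fell and 0 rose in edgeR. At an unadjusted p under 0.05 in edgeR there were 16 lower and 2 higher, and DESeq2 called 8 lower and 2 higher. In the pathway of animal autophagy 11 of 95 fell and 4 rose in edgeR. As shares, 8.45% and 11.6% fell, beside 4.54% of all tested genes, and 0% and 4.21% rose, beside 5.49%. Some of these genes are also in the 11 lists, so the counts are not independent of them.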

How the data were processed

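RNA-seq values were analysed for 8 libraries, 4 labelled PBS and 4 labelled rFGF4, matched to the table's columns by name. The authors deposited 2 values per gene and library, per the file headers: FPKM, with 0.0001 in place of 0, and counts. The authors deposited the counts, per the file headers, as whole numbers that behave as estimated counts, of the kind made from transcript coverage, with 9781 entries at 4 against 3485 at 3 and 1977 at 5, and needed no rounding. HISAT2 2.0 and StringTie 1.3.0 are named, without roles, per the submitters' processing notes. Genome build, annotation and strand setting: not given in the sources used here.

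Before any step, 521 of 58825 genes were removed because the values are human (Y-linked genes, XIST and TSIX). Genes with a mean of at least 1 FPKM were tested with edgeR 4.0.16 (TMM scaling, quasi-likelihood test, two-sided) in R 4.3.3, over all 8 libraries without covariates, with Benjamini-Hochberg adjustment over 11536 genes and a threshold of 0.05. CPM is counts scaled to the total of the tested genes with TMM factors. The SE is the absolute log2 fold change divided by the square root of F. The script was tested on simulated data. Alternatives were DESeq2 1.42.0, limma 3.58.1 on log2(FPKM + 1) and log2(FPKM + 0.1), median-of-ratios scaling, other filters, counts divided by 4, a replicate block and leaving out each library.

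The 43 genes, the 11 lists, the marker lists and the naming rule were chosen with earlier results of these data known. The rule named every one of the 43, up to 4 called genes per list with the smallest p, the 5 genes most like GPNMB, and FGF4, DUSP6 and ETV4. FBXO31, MPRIP, KRT5, KRT14 and the near copies of MAP1LC3B were named after their values were seen. Some genes that the rule takes are not reported here. No sequences were used here.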

Additional observations from a re-analysis of the deposited data

Results flagged for a closer look

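In 4 of 76 groups of 4 libraries (38 tested genes in 2 groups), 1 library stood apart by Dixon's criterion at 95%, which flags about 1 group in 20 by chance, or 3.8 of 76. TPP1 was at 117.31 CPM in PBS replicate 1, with the other PBS libraries at 43.5 to 53.0 CPM. LAMP1 was at 289.69 CPM in rFGF4 replicate 3, while the remaining rFGF4 libraries were between 376 and 392 CPM. PBS replicate 4 was high for CTSB (424.12 CPM, the others 365 to 370) and for ATP6AP1 (158.71 CPM, the others 128 to 132). The cause of these values was not tested.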

How the results depend on the processing

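Across 17 alternatives, the calls for MAP1LC3B, ULK1, GPNMB and PSAP held in all, and that for LAMP2 was lost in 12. No called value changed sign. Of the 33 uncalled genes, 6 were called under some alternative (ATP6V0D1, ATP6V1H, SQSTM1, CD68, GABARAPL1 and TFEB), and 8 changed sign under some alternative (LAMP1, CTSA, CTSC, CTSH, GLA, CD63, TPP1 and ASAH1). DESeq2 called 8 of the 43 lower in place of 5, and 982 higher and 846 lower over all genes in place of 633 and 524. With each library left out in turn, 4 to 8 of the 43 were lower and 0 to 1 higher, and over all genes 326 to 622 were higher and 275 to 547 lower. Of the 167 tested genes of the wider lists, 16 were lower and 2 higher, against 22 and 3 with DESeq2, and the lower count was 9 with filterByExpr, 7 with no filter and 4 to 13 without 1 library, and 14 of the 18 calls were lost under at least 1 alternative. With a replicate block, 5 of the 43 and 7 of the wider lists were lower, and 561 genes were higher and 452 lower. Same-numbered libraries did not deviate together throughout (r = 0.123, 0.0578, −0.0225 and 0.284). PBS replicates 1, 2 and 4 correlated best with the rFGF4 library of the same number. PBS replicate 3 correlated best with rFGF4 replicate 2 (0.0847). The main fit did not take the numbers as pairs, and a shared origin of same-numbered libraries remains possible. The lowest floor was 0.162 CPM, which limits only RRAGD among the 43. The causes of these shifts were not tested.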
